A study of Mus musculus with 16 samples.

Results

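The genes described here are 6 outputs of the circadian clock that lie outside its core loop, Usp2, Wee1, Nampt, Klf10, Por and Coq10b, out of 55181 genes joined by symbol. They were chosen by name, and their course was set beside those of Dbp and Per2. RNA was sequenced from submandibular glands of WT mice aged 6 to 8 weeks in 10 libraries, 5 groups of 2. Irradiated glands were taken 6 h or 24 h after a dose of 5 Gy, and untreated control glands at ZT3, ZT9 or ZT15 (zeitgeber time, hours after lights on). In CUT&Tag an antibody guides a transposase to chromatin near its target; 6 lists of summits from untreated glands were used, 2 for each of the targets Bmal1, Nr1d1 and Dbp. The labels do not give the clock hour of the irradiated glands, the sex of the mice or a CUT&Tag control sample, and they name the CUT&Tag target as a genotype. Whether replicates came from separate animals is also not said, so p-values measure the spread between these samples. In the ZT15, 6 h and 24 h pairs 1 library held Y-linked transcripts and the other Xist. Those pairs were therefore not repeats of 1 animal, and their spread includes this difference. At ZT3 and ZT9 the spread may be technical. Whole-gland RNA cannot tell fewer cells of a type from less RNA per cell.

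In the mammalian clock, BMAL1 and CLOCK bind E-boxes and drive Per and Cry genes, whose products repress them, while NR1D1 (REV-ERB alpha) and ROR receptors compete for a shared element. The same factors act on output genes directly, and the PAR bZIP factor DBP carries the rhythm on to genes with D-boxes. Usp2 encodes a deubiquitinating enzyme, Wee1 the kinase that holds CDK1 inactive before mitosis, and Klf10 a Krüppel-like factor induced by TGF-beta. Nampt encodes the rate-limiting enzyme of NAD salvage, Por the reductase that passes electrons to microsomal cytochromes P450, and Coq10b a mitochondrial coenzyme Q-binding protein. In rodent tissues, Usp2, Wee1, Nampt and Por are known as rhythmic transcripts.

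Several features differed between the libraries, some of them between groups and some within a group. Total FPKM (fragments scaled to transcript length and to mapped fragments) ranged between 791786 and 1174460 per library, and depth relative to the first ZT3 library, read from genes of low abundance, between 0.689 and 1.57. Of the 5 acinar markers, Aqp5, Bhlha15 and Slc12a2 were present in all 10 libraries, at 134 to 541, 55.4 to 156 and 183 to 540 FPKM. Prol1 was listed at 0 in the first library taken at 24 h and was at 22178 FPKM or more in the others, and Muc19 was at 0.274 FPKM in the second ZT9 library and at 515 to 2863 FPKM in the others. The summed FPKM of the 5 granular convoluted tubule markers was 30814 and 52289 in the ZT3 libraries and between 264 and 8142 in the other 8. The 3 neutrophil markers summed to 29.4 to 50.6 FPKM at 6 h after irradiation, 4.83 to 11.5 at 24 h, 1.12 to 43.6 at ZT3, 0 to 0.354 at ZT9 and 0.484 to 207 at ZT15. The 3 parotid markers, Amy1, Bpifa2 and Prb1, summed to 42562 to 80854 FPKM at 6 h after irradiation, 7294 to 36108 at 24 h, 2560 to 36117 at ZT3, 3967 to 8448 at ZT9 and 4145 to 105318 at ZT15. Y-linked transcripts were present in 5 libraries, both at ZT3, the second at ZT15 and the first at 6 h and at 24 h, and Xist in the other 5, so ZT9 and ZT3 also differ in this. The ZT3 and irradiated files shared 1 gene order, and the ZT9 and ZT15 files another.

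The summit lists also resembled each other across targets. On the main chromosomes they held 30977 and 19699 summits for Bmal1, 9584 and 38310 for Nr1d1, and 49235 and 10324 for Dbp. Of the summits in the first Bmal1 list, 79.6% lay within 200 bp of a summit of the second Nr1d1 list and 77.6% of the first Dbp list, against 24.6% of the second Bmal1 list. A shared position is therefore reported as a summit in several lists, not as binding of a given target. Ranks are by the authors' deposited score within a list.

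Promoter sequence, 250 bases before to 50 after the start site, was given by RefSeq (GRCm38.p6, the assembly of mm10) for 4 of the 6 genes, all on the + strand: Usp2 at chr9:44084670-44084969, Nampt at chr12:32820085-32820384, Por at chr5:135688895-135689194 and Coq10b at chr1:55052520-55052819. They are shown because summits fell inside all 4 windows. Capitals mark matches, on either strand, to the E-box CACGTG, the E-prime box CACGTT, the D-box core TTANGTAA or the AGGTCA element of ROR and REV-ERB receptors, which were held by 7.15%, 4.68%, 2.32% and 16.3% of 32851 mouse promoters.
Usp2: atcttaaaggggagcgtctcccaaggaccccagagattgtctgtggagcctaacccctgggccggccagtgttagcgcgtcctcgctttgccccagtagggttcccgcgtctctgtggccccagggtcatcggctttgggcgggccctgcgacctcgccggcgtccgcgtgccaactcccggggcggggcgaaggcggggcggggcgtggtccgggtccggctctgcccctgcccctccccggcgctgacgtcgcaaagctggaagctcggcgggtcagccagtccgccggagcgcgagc
Nampt: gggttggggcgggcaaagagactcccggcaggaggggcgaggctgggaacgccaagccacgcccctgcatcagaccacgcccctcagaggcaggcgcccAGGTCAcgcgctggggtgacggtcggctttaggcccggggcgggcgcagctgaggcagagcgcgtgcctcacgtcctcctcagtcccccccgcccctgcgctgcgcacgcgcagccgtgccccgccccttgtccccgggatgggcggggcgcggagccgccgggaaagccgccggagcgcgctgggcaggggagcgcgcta
Por: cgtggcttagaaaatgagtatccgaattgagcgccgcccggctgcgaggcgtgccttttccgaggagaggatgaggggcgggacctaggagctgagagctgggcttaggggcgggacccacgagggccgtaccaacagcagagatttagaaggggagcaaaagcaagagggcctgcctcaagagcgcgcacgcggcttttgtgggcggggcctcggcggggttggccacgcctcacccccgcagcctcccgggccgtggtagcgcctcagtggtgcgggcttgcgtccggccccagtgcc
Coq10b: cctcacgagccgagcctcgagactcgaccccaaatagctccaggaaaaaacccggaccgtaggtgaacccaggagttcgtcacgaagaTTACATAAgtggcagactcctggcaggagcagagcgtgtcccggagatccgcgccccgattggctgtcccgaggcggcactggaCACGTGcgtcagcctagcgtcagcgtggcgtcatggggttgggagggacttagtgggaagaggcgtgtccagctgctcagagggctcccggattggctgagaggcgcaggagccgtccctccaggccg
The Coq10b window held an E-box beginning 78 bases before the start site and a D-box match, TTACATAA, beginning 162 bases before it. The Nampt window held 1 AGGTCA, beginning 151 bases before the start site. The letters searched did not occur in the Usp2 and Por windows. The marked matches did not overlap each other.

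Usp2 was lowest in the ZT3 glands, at a mean of 6.86 ± 1.37 FPKM (SD, n = 2), and its mean was between 21.0 and 31.7 FPKM in the other 4 groups. Its level was 27.8 and 21.5 FPKM at 6 h after irradiation and 21.2 and 37.2 FPKM at 24 h, against 7.83 and 5.89 FPKM at ZT3, 34.7 and 28.6 FPKM at ZT9, and 22.5 and 19.5 FPKM at ZT15. Both ZT3 libraries lay below the other 8, and the lowest of those 8 was 2.49 times the higher ZT3 value. The 2 irradiated groups overlapped each other and ZT15, and the 24 h group also overlapped ZT9.

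Wee1, the G2/M kinase, was also lowest at ZT3, over a smaller range. It was at 8.99 and 9.84 FPKM at 6 h and 7.32 and 10.9 FPKM at 24 h, against 4.45 and 3.26 FPKM at ZT3, 12.2 and 10.1 FPKM at ZT9, and 11.0 and 9.26 FPKM at ZT15. Both ZT3 libraries were again the 2 lowest, by 1.64 times, and each of the other 4 groups overlapped its neighbour in the order of means.

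Coq10b was at 17.5 and 13.6 FPKM at 6 h and 13.2 and 14.1 FPKM at 24 h, against 7.92 and 8.66 FPKM at ZT3, 18.4 and 21.7 FPKM at ZT9, and 14.4 and 22.1 FPKM at ZT15. The ZT3 pair was lowest by 1.53 times, and the irradiated libraries lay between the ZT3 and ZT9 pairs without overlapping either.

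Nampt was highest in the irradiated glands. Its level was 19.8 and 18.2 FPKM at 6 h and 16.0 and 18.0 FPKM at 24 h, against 11.3 and 11.8 FPKM at ZT3, 13.6 and 12.3 FPKM at ZT9, and 15.3 and 12.3 FPKM at ZT15. All 4 irradiated libraries lay above all 6 controls, which was also true of 4.58% of the genes tested. After median-of-ratios scaling the lowest irradiated library, at 3.90 on the log2 scale, lay below the highest control, at 4.05.

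Por and Klf10 showed no such separation. Por was at 25.2 and 42.3 FPKM at 6 h and 33.1 and 30.1 FPKM at 24 h, against 30.2 and 30.7 FPKM at ZT3, 28.4 and 40.2 FPKM at ZT9, and 46.6 and 35.4 FPKM at ZT15. Klf10 was at 8.22 and 5.96 FPKM at 6 h and 7.44 and 10.6 FPKM at 24 h, against 7.79 and 6.09 FPKM at ZT3, 9.87 and 5.69 FPKM at ZT9, and 3.77 and 7.11 FPKM at ZT15. In both genes every group overlapped its neighbour in the order of means, which spanned 1.35 times for Por and 1.66 times for Klf10.

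**Figure D1:**
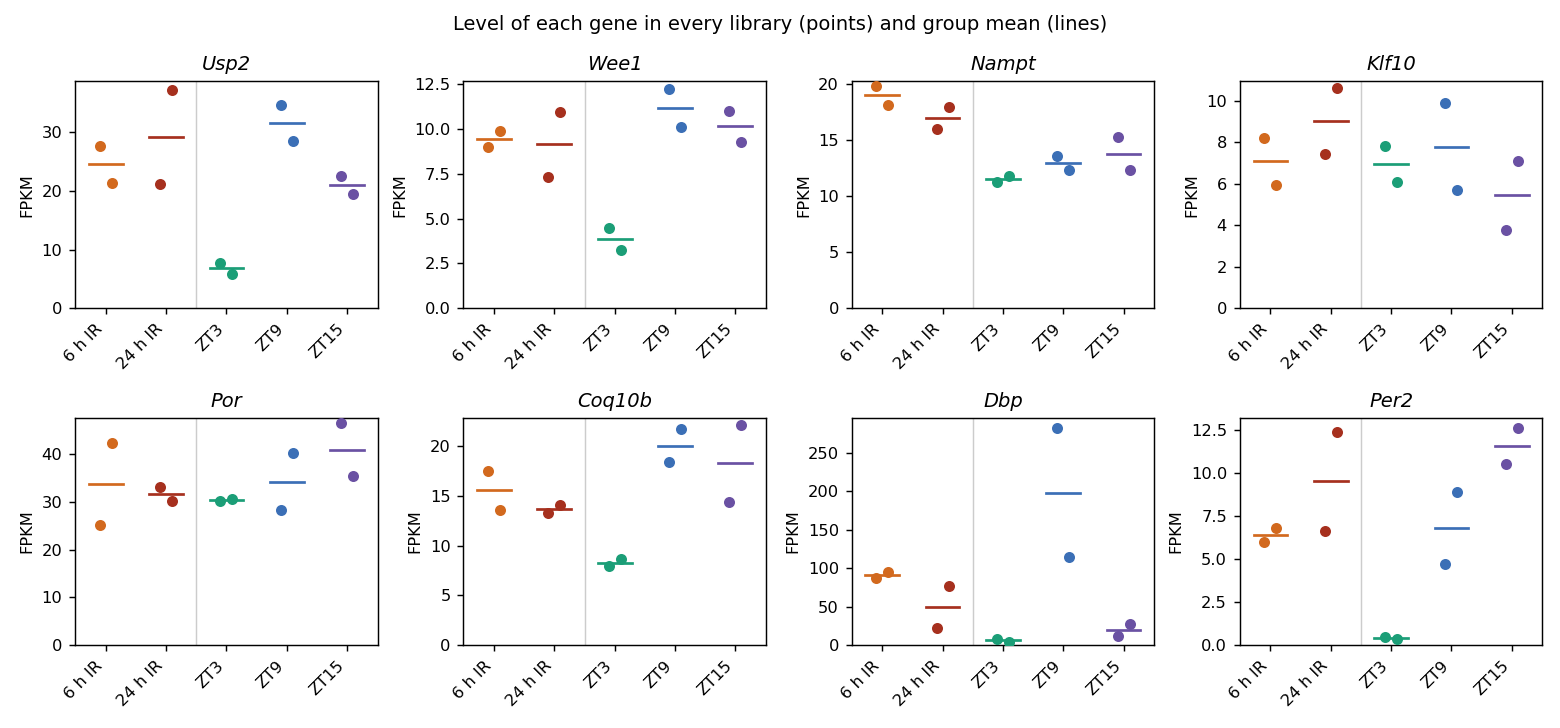
FPKM of the 6 genes and of Dbp and Per2 in each of the 10 libraries (points), with the mean of each pair (lines), for glands 6 h and 24 h after irradiation and controls at ZT3, ZT9 and ZT15. In Usp2, Wee1 and Coq10b the 2 ZT3 points lie below the other 8, and in Nampt the 4 irradiated points lie above the 6 controls.

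Dbp and Per2 ranged further than any of the 6. Dbp, the PAR bZIP activator, was at 86.8 and 95.0 FPKM at 6 h and 22.1 and 76.3 FPKM at 24 h, against 8.55 and 3.88 FPKM at ZT3, 281 and 115 FPKM at ZT9, and 12.5 and 28.1 FPKM at ZT15. Per2, the core repressor, was at 5.96 and 6.81 FPKM at 6 h and 6.65 and 12.4 FPKM at 24 h, against 0.472 and 0.369 FPKM at ZT3, 4.72 and 8.89 FPKM at ZT9, and 10.5 and 12.6 FPKM at ZT15. Their ZT3 pairs were also below the other 8 libraries. Both ZT3 libraries lay below the other 8 in 4 of the 6 output genes, Usp2, Wee1, Coq10b and, by 1.05 times, Nampt, and in 6.52% of all genes tested. The granular tubule markers, high in the same 2 libraries, moved with this pattern, and their part in it was not tested. Y-linked transcripts, present in both ZT3 libraries, were found among untreated libraries outside ZT3 only in the second at ZT15. Their part in the pattern was not tested either.

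Changes were tested with limma on log2(FPKM + 1) over 15161 genes, with Benjamini-Hochberg adjustment and a threshold of 0.05. At 24 h after irradiation, set against ZT3, Usp2 was the 1 of the 6 that passed, with a log2 change of 1.90 ± 0.28 (SE, n = 2 per group, adjusted p = 0.0391 in limma), where 0.495% of all genes were called. The changes of the others were 1.05 ± 0.23 for Wee1, 0.66 ± 0.22 for Coq10b, 0.52 ± 0.16 for Nampt, 0.33 ± 0.35 for Klf10 and 0.05 ± 0.27 for Por. The median of all genes in this comparison was 0.21, and of the 6 it was 0.59. The call for Usp2 rested on ZT3 as the control: its change was -0.16 against ZT9 (adjusted p = 0.761 in limma) and 0.41 against ZT15 (adjusted p = 0.398), where 5.11% and 1.13% of all genes were called. Under median-of-ratios scaling it was 1.65 over ZT3 (adjusted p = 0.0929). It was also lost, with limma's adjusted p between 0.0628 and 0.276, without either library of ZT3, ZT15 or the 6 h group or without the second at 24 h, and held without either ZT9 library or the first at 24 h. In summed FPKM, though not for Cnn1 and Pdgfra alone, 5 marker lists beside the granular tubule list had both 24 h libraries below both ZT3 libraries. Among them were B and plasma cell markers at 159 to 213 FPKM against 1924 to 4746, myoepithelial markers at 236 to 290 against 321 to 451 and blood markers at 26.8 to 40.7 against 85.9 to 110, and the others were T cell and fibroblast markers. Their part in the result was not tested.

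At 6 h after irradiation, set against ZT9, none of the 6 passed the threshold in limma, where 0.514% of all genes were called, and 1 of the 6, Nampt, had an unadjusted p under 0.05, as did 12.2% of all genes. Nampt differed by 0.52 ± 0.16 on the log2 scale (adjusted p = 0.276 in limma). The values of the others were -0.36 ± 0.28 for Usp2, -0.22 ± 0.23 for Wee1, -0.35 ± 0.22 for Coq10b, -0.09 ± 0.35 for Klf10 and -0.05 ± 0.27 for Por, beside a median of all genes of 0.12. In Usp2, Wee1 and Coq10b both 6 h libraries lay below both ZT9 libraries, as in 12.4% of all genes. The parotid markers were higher at 6 h than at ZT9 with no overlap, as were neutrophil, endothelial (21.1 to 23.0 FPKM against 12.4 to 15.9), macrophage markers (44.0 to 68.5 FPKM against 34.3 to 38.9) and, by a small margin, granular tubule markers (532 FPKM or more against 531 or less). Summed duct markers were lower (94.7 to 113 FPKM against 124 to 127), while Krt7 overlapped and Krt19 was higher (15.2 and 5.59 FPKM against 4.40 and 2.68). The acinar sum, most of it Prol1, was lower too (24681 to 32927 FPKM against 43458 to 60481), and Bhlha15, Slc12a2 and Muc19 overlapped. The other lists are also given as sums, and some of their single markers overlapped, among them Cdh5 and Cd68. Their part in these values was not tested. Set against ZT3 instead, Usp2 was called at 6 h, at 1.70 ± 0.28 (adjusted p = 0.0467 in limma), among 0.792% of all genes.

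The 24 h and 6 h groups, set against each other, gave no call among the 6 in limma (0.0198% of all genes) and none with an unadjusted p under 0.05. Their log2 differences lay between -0.16 for Coq10b and 0.30 for Klf10, where the median of all genes was 0.10. The difference between the 24 h change over ZT3 and the 6 h change over ZT9 was 2.26 ± 0.40 for Usp2, 1.26 ± 0.32 for Wee1 and 1.01 ± 0.32 for Coq10b. In that test none of the 6 passed in limma (adjusted p = 0.261 for Usp2), 3 had an unadjusted p under 0.05 (10.7% of all genes), and 0.0198% of all genes were called. The pairing with these controls is assumed, as clock hours are not labelled. The contrast contains the difference of ZT9 over ZT3, for Usp2 2.06, beside that of 24 h over 6 h, for Usp2 0.20. With both irradiated times set against the mean of the control times, a comparison added after the values were seen, Nampt was higher by 0.47 ± 0.10 (adjusted p = 0.0649 in limma, 4 irradiated and 6 control libraries). None of the 6 passed there, 2 had an unadjusted p under 0.05 (20.3% of all genes), and 1.95% of all genes were called, with a median of all genes of 0.14.

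Between the control times, no member passed the F test in limma (0.0198% of all genes called), and 3 of the 6 had an unadjusted p under 0.05, as did 13.1% of all genes. At ZT9 the log2 difference from ZT3 was 2.06 ± 0.28 for Usp2 (adjusted p = 0.0977 in limma), 1.33 ± 0.23 for Wee1 (adjusted p = 0.111) and 1.17 ± 0.22 for Coq10b (adjusted p = 0.122). Those 3 had an unadjusted p under 0.05, as did 16.0% of all genes. None of the 6 passed after adjustment, and 0.00660% of all genes did. With a covariate for Y-linked transcripts the values were 1.84 for Usp2, 1.05 for Wee1 and 1.43 for Coq10b. Nampt, Por and Klf10 differed by 0.16 ± 0.16, 0.15 ± 0.27 and 0.11 ± 0.35. At ZT15 the difference from ZT3 was 1.49 ± 0.28 for Usp2, 1.20 ± 0.23 for Wee1 and 1.02 ± 0.22 for Coq10b, again 3 with an unadjusted p under 0.05 (11.4% of all genes) and none called in limma (0.0198% of all genes). Dbp, at 4.73 ± 0.68 for ZT9 and 1.54 ± 0.68 for ZT15, and Per2, at 2.41 ± 0.33 and 3.14 ± 0.33, did not pass either.

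**Figure D2:**
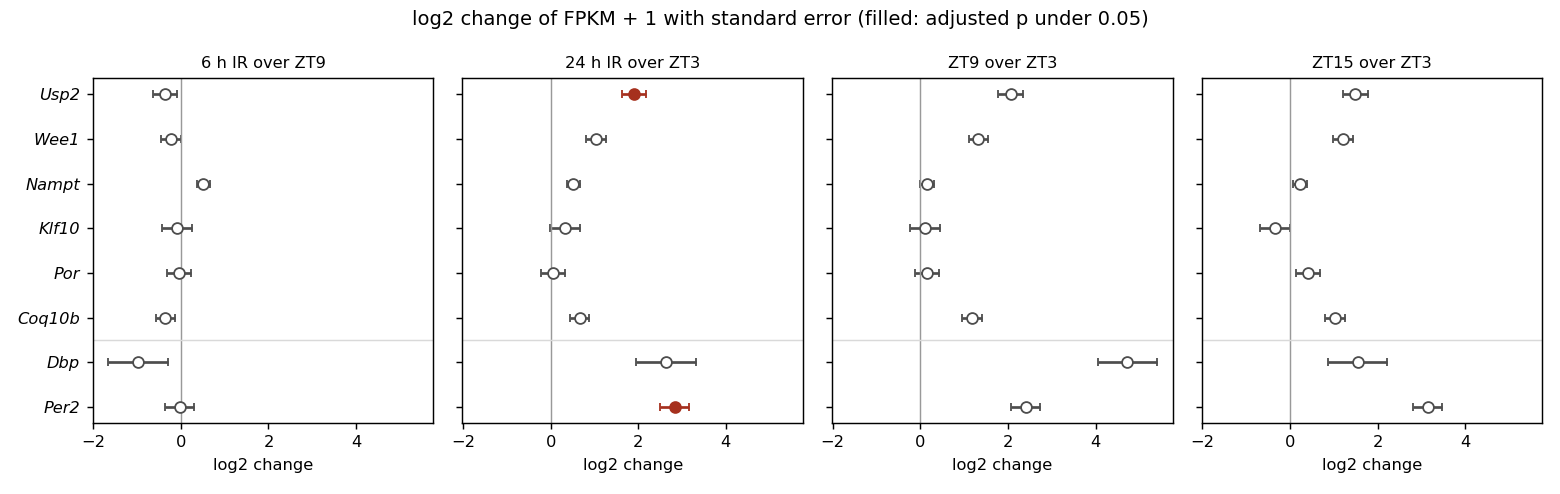
Log2 change of FPKM + 1 (points) with its standard error (bars) for the 6 genes and, below the line, Dbp and Per2, in 4 comparisons. Usp2 and Per2 at 24 h over ZT3 are filled, as they passed an adjusted p of 0.05.

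Most of the output genes changed less than Per2 between the control times. Fitted as differences from Per2 in the same library, 5 of the 6 differed from Per2 at ZT9 over ZT3 and 6 of 6 at ZT15 over ZT3, each with the smaller change. The shortfall of Usp2 was the smallest, -0.34 ± 0.47 at ZT9 (adjusted p = 0.471 in limma) and -1.65 ± 0.47 at ZT15 (adjusted p = 0.00233). Per2 at ZT3, at 0.472 and 0.369 FPKM, lay below the 1 added before taking logs. Its changes over ZT3, and so the shortfalls from it, are understated on this scale. Of all genes, 98.4% and 99.2% differed from Per2 in these comparisons, so the counts say no more of the output genes than of genes in general. At 24 h over ZT3, 5 of the 6 differed from Per2, again with the smaller change, beside 99.2% of all genes, and the value for Usp2 was -0.93 ± 0.47 (adjusted p = 0.0601 in limma).

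Set beside Dbp, all 6 differed at ZT9 over ZT3, as did 99.9% of all genes, and their changes were smaller, by 2.67 on the log2 scale for Usp2 and 3.55 for Coq10b. None of the 6 differed from Dbp at ZT15 over ZT3, where 0.422% of all genes did and limma's unadjusted p was above 0.05 for each of the 6. At 6 h over ZT9 none differed from Dbp (0.574% of all genes) or from Per2 (0.310%), and limma's unadjusted p was again above 0.05 for each. Against Dbp the SE was 0.98 to 1.00 in both comparisons. Differences such as -1.88 for Klf10 at ZT15 over ZT3 and 1.49 for Nampt at 6 h over ZT9 were not resolved, so no likeness to Dbp follows. At 24 h over ZT3, 3 of the 6, Nampt, Klf10 and Por, differed from Dbp with the smaller change, beside 86.8% of all genes, and none did when each gene kept its own residual variance, with adjusted p of 0.0777 to 0.0778 for these 3 and 0% of all genes called.

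Across the 10 libraries, log2(FPKM + 1) of Usp2 followed that of Dbp with a Pearson r of 0.85 (permutation p = 0.00066, adjusted p = 0.00792 over 12 relations) and a Spearman rho of 0.76 (permutation p = 0.0136, adjusted p = 0.163). Libraries of 1 group are not independent of that group. The permutations, here and for Per2, shuffled single libraries, so their p-values may be too small. For Wee1 and Dbp, r was 0.79 (permutation p = 0.00446, adjusted p = 0.0268) and rho 0.65 (permutation p = 0.0476, adjusted p = 0.193). Without the 2 libraries farthest from the median of Dbp, the second at ZT3 and the first at ZT9, r was 0.74 for Usp2 (exact permutation p = 0.0235, adjusted p = 0.282) and 0.60 for Wee1 (exact permutation p = 0.124, adjusted p = 0.545), and neither passed after adjustment. Coq10b and Dbp had r of 0.71 and rho of 0.65 (permutation p = 0.0254 and 0.0484, adjusted p = 0.0578 and 0.193), and r of 0.58 without the 2 libraries. Nampt, Klf10 and Por had r with Dbp of 0.44, 0.43 and -0.11 and rho of 0.47, 0.19 and -0.14, with permutation p = 0.197, 0.221 and 0.755 for r (adjusted p = 0.295, 0.295 and 0.823). Within the 6 libraries of 1 gene order, those of ZT3 and the irradiated groups, r with Dbp was 0.92 for Usp2 (exact permutation p = 0.0306) and 0.97 for Wee1 (exact permutation p = 0.0139). For Nampt it was 0.95 there (exact permutation p = 0.025), and each of these had an adjusted p of 0.0733. Coq10b had 0.89 (exact permutation p = 0.0444, adjusted p = 0.0889), Klf10 0.37 and Por 0.13. In these 6 libraries the ZT3 pair lay below the irradiated ones in Dbp, Usp2, Wee1, Nampt and Coq10b, so r includes that difference. The other gene order held too few libraries.

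For Per2 the ZT3 pair stood apart from the other 8 libraries, so no r over all 10 is printed. Over all 10, r with Per2 was at least as high as with Dbp for Usp2, Wee1 and Coq10b. None of the 6 relations with Per2 passed there (smallest permutation adjusted p = 0.0578, for Usp2, Wee1 and Coq10b). Within the other 8, r with Per2 was -0.17 for Usp2, 0.05 for Wee1, 0.11 for Coq10b, -0.23 for Nampt, -0.24 for Klf10 and 0.40 for Por, and the smallest exact permutation p was 0.312 (adjusted p = 0.749, for Por). Spearman's rho lay between -0.38 and 0.50. The 8 libraries kept for Dbp held 1 of ZT3, and those kept for Per2 held none. These values therefore do not show whether the output genes followed Dbp more than Per2.

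**Figure D3:**
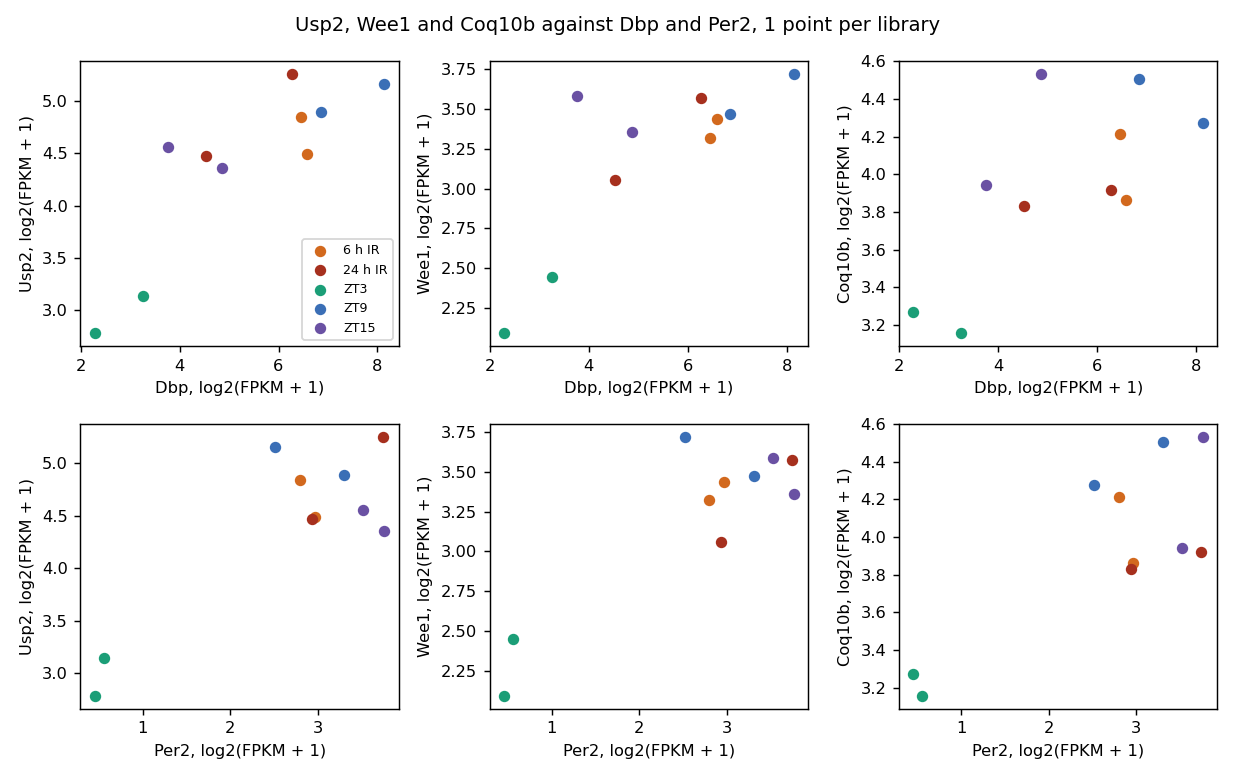
Log2(FPKM + 1) of Usp2, Wee1 and Coq10b against that of Dbp (upper row) and Per2 (lower row), 1 point per library, coloured by group. Against Per2 the 2 ZT3 points stand alone at the lower left, and the other 8 show no common slope.

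The genes whose course was most like each member, by Pearson r over the 10 libraries among genes whose mean reached 5 FPKM with a range of at least 1 on the log2 scale, give a description of these libraries. For Usp2 they were Per3, a core Period gene, at r = 0.98, Wee1 at 0.95 and Tef, a PAR bZIP factor, at 0.94 of 3876 candidates, and for Wee1 they were Cry2, a core repressor, at 0.95, Per3 at 0.95 and Usp2 at 0.95. Per2 was at rank 28 for Usp2 and rank 15 for Wee1, and Dbp at ranks 31 and 68. Coq10b was nearest to Cactin (0.96), Adtrp (0.92) and Fcgrt (0.89), with Per2 at rank 18. Nampt was nearest to Ddit4l (0.97), Trafd1 (0.97) and Hs2st1 (0.95), with Per2 at rank 640 of 3877. Klf10 was nearest to Cir1 (0.89), Cep57 (0.83) and S100a6 (0.81), and Por to Scd1 (0.84), Igkv4-57 (0.81) and Cox8b (0.71).

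Among 14 other clock outputs, 13 were tested and none was called in limma at 24 h over ZT3, where 7 had an unadjusted p under 0.05, as did 17.9% of all genes. Of the 13, 12 were higher, and the median log2 change was 0.72 beside 0.21 for all genes. Tsc22d3, a glucocorticoid-induced leucine zipper gene, stood at 1.08 ± 0.22 (adjusted p = 0.0959 in limma) and Tspan4, a tetraspanin, at 1.16 ± 0.24 (adjusted p = 0.0957). At 6 h over ZT9, 5 of the 13 were higher, with a median of -0.07, and at ZT9 over ZT3, 11 were higher, with a median of 0.38. None was called in limma in these comparisons, and 1 and 5 had an unadjusted p under 0.05, beside the 12.2% and 16.0% of all genes above.

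The genes around each member gave few calls. Of the substrates stabilised by USP2, Mdm2, the ubiquitin ligase of p53, rose at 6 h over ZT9 by 2.32 ± 0.21 (adjusted p = 0.00503 in limma) and at 24 h over ZT3 by 1.46 ± 0.21 (adjusted p = 0.0356), and its relative Mdm4 rose at 24 h over ZT3 by 2.11 ± 0.30 (adjusted p = 0.0365). Mdm2 is also a p53 target that radiation induces. Ccnd1 and Fasn, the other 2 of the 4, were not called. No gene was called in limma at 6 h over ZT9 or at 24 h over ZT3 among 9 of NAD salvage and use beside Nampt, 8 of the G2/M gate around WEE1, 4 tested KLF relatives, 9 of microsomal electron transfer around POR and 12 of coenzyme Q. An unadjusted p under 0.05 was reached by 1, 0, 0, 2 and 1 of them at 6 h and by 2, 0, 1, 1 and 4 at 24 h. Of all genes, 12.2% and 17.9% reached it in these comparisons. At 24 h over ZT3 all 12 coenzyme Q genes were higher, with a median of 0.32 beside 0.21 for all genes, led by Coq2 at 0.79 ± 0.15 (adjusted p = 0.0900 in limma). Of the 8 G2/M genes, 8 were higher at 6 h over ZT9 (median 0.27) and 1 at 24 h over ZT3 (median -0.21). Cdc25c, Ccnb1, Plk1 and Chek1 had means under 1 FPKM both at 24 h and at ZT3, so their direction rests on values near 0. Nampt's 9 neighbours in NAD metabolism had medians of 0.14 at 6 h over ZT9 and 0.31 at 24 h over ZT3, with 7 higher in each.

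Inside the genes and 10 kb around them, both Bmal1 lists had summits within 200 bp of each other at 6 of the 6, against 25.9% of 21887 protein-coding genes, and both Dbp lists at 6 of the 6, against 28.1%. Both Nr1d1 lists did so at 5 of the 6, all but Coq10b, against 13.3%. These shares depend on gene length and on the lists' likeness, and no test was made. At Usp2, Wee1, Nampt and Klf10 a summit of the first Nr1d1 list, the shortest, had summits of the other 5 lists within 200 bp, as at 8.13% of protein-coding genes.

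In both Bmal1 lists and both Dbp lists, the summit in the Coq10b promoter ranked above any at the other 5 genes. It lay 134 bases before the start site in the first Bmal1 list, at rank 5, 139 bases before it in the first Dbp list, at rank 4, and 133 bases before it in the second Dbp list, at rank 8 of 10324. These 3 fell between the D-box match and the E-box in the sequence shown above. The second Bmal1 list, at rank 59, and the second Nr1d1 list, at rank 573, shared 1 base 41 before the start site. The first Nr1d1 list had none within 10 kb.

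Of 32851 promoter windows, the share with a summit was 19.1% and 6.26% for the Bmal1 lists, 2.87% and 21.2% for the Nr1d1 lists and 21.0% and 6.75% for the Dbp lists. The Nampt window had a summit in all 6 lists, between 79 and 216 bases before the start site. Ranks were 75 and 93 for Bmal1, 1215 and 292 for Nr1d1, and 579 and 626 for Dbp. The summits of 5 lists lay upstream of the AGGTCA, and that of the first Nr1d1 list lay downstream of it.

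At Por (chr5:135670040-135735326), whose promoter lies inside the annotated span, all 6 lists had a summit between 18791 and 19108 bases from the lower end, and 5 of these fell in the window shown. Ranks were 80 and 238 for Bmal1, 1695 and 239 for Nr1d1, and 466 and 657 for Dbp. At Wee1 (chr7:110122059-110143299) a site 191 to 385 bases below its lower end held a summit of all 6 lists, at ranks 720 and 381 for Bmal1, 119 and 462 for Nr1d1, and 407 and 262 for Dbp. The second Nr1d1 list and the second Dbp list each had another inside the gene, 626 and 970 bases from that end at ranks 37931 and 1289, and the first Dbp list another 7102 bases below it. At Klf10 (chr15:38291464-38300711) the site in all 6 lists lay 60 to 241 bases beyond the higher end, at ranks 1709 and 943 for Bmal1, 6256 and 711 for Nr1d1, and 8085 and 4222 for Dbp. Of the other Klf10 summits, 1 of the first Dbp list, 707 bases inside the gene from its lower end, had rank 1020, above that list's 8085.

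Usp2 (chr9:44067021-44095627) had several sites. Summits of all 6 lists stood 12100 to 12170 bases inside the gene from its lower end, at ranks 488 and 2069 for Bmal1, 1564 and 226 for Nr1d1, and 1000 and 483 for Dbp. Another site, 13 to 97 bases below the lower end, was in 5 lists, all but the first Nr1d1 list. The promoter window shown above held summits of 3 lists, at ranks 11087, 31485 and 20204, lower than at either of those sites in the same lists. For comparison, all 6 lists had summits in or near Dbp, and 5 lists, all but the first Nr1d1 list, in or near Per2.

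**Figure D4:**
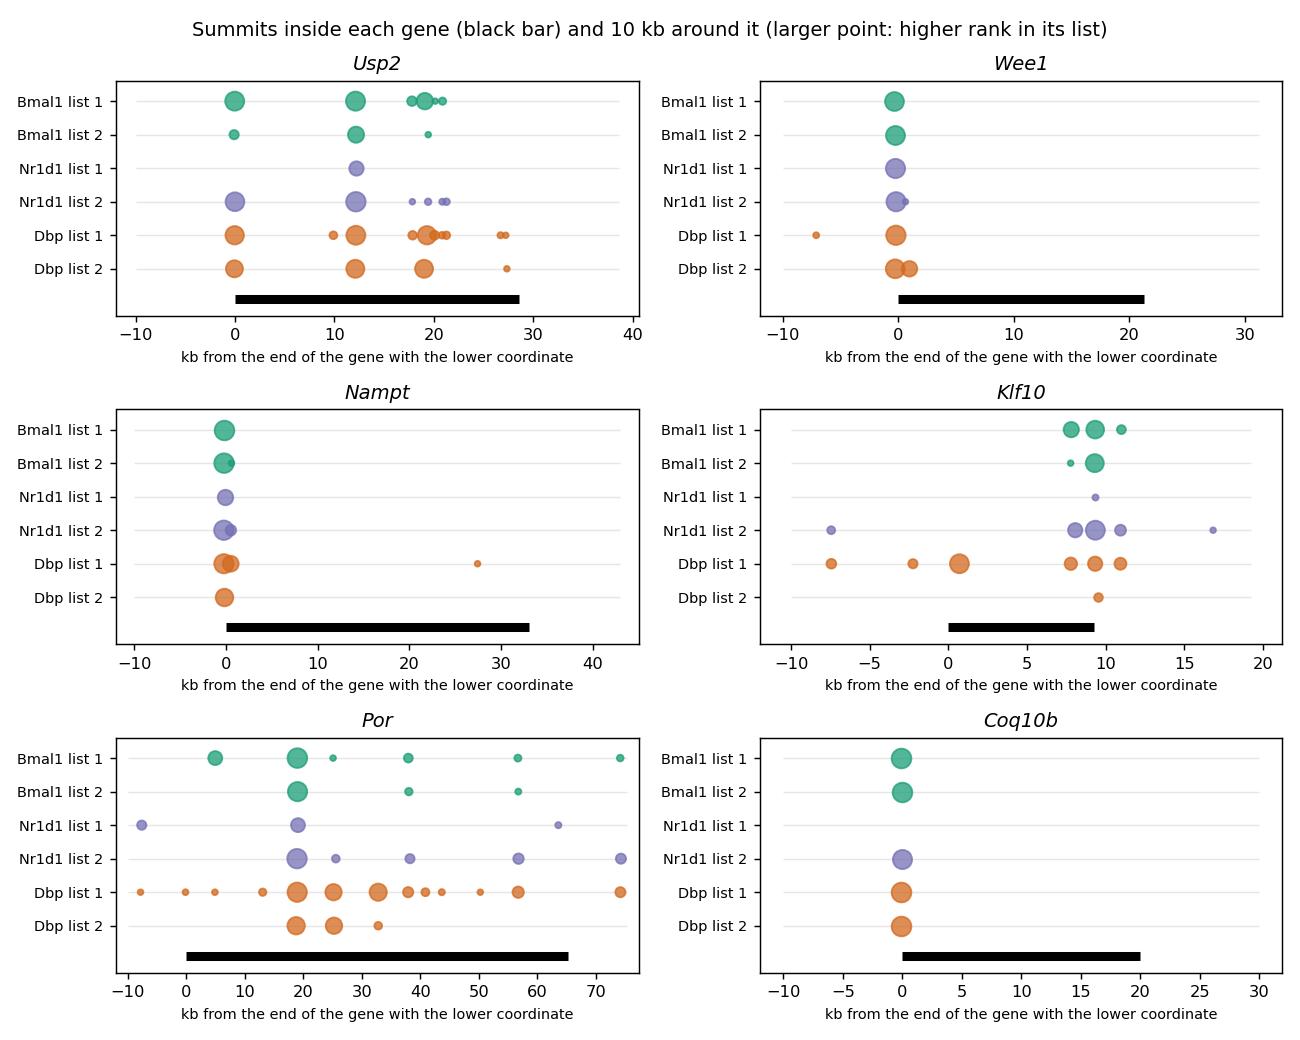
Summits of the 6 lists (rows, coloured by target) inside each gene (black bar) and 10 kb around it, by distance in kb from the end of the gene with the lower coordinate. Larger points rank higher in their own list. Each gene has a position where at least 5 lists hold a summit, and Usp2 has 2 of them.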

How the data were processed

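Expression values were deposited by the authors as FPKM per gene symbol, 1 file per library. Per the submitters' processing notes, HISAT2, Cufflinks, Bowtie2, SAMtools and the build mm10 were used; their roles, versions and the annotation are not stated. Each deposited CUT&Tag file lists summits 1 bp wide and a score. Its scale and the caller are not stated, so the score gave ranks only. The 217 entries with a repeated symbol were left out. FPKM carries no counts: depth is unknown, no counting interval was computed, and 2 libraries per group limit the precision.

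Genes reaching 1 FPKM in 2 or more libraries were fitted as log2(FPKM + 1) with limma 3.58.1 (trend, 1 mean per group, 5 residual degrees of freedom; R 4.3.3), tested on simulated data; fold changes of low genes are understated on this scale. ZT9 was the control for 6 h and ZT3 for 24 h, after the tag of ZT3 as starting point. Differences from Dbp and Per2 were fitted likewise, and correlations tested with 100000 permutations (exact for 8 or fewer libraries). Summits and promoters were handled in Python 3.11.15 with scipy 1.17.1, pandas 2.3.3 and numpy 2.4.6, and drawn with matplotlib 3.10.9. Pathway genes were named where called, up to 4 per list, likeness genes 3 per member. Tsc22d3, Tspan4 and Coq2 were named after their values were seen. Members and lists were chosen with earlier results of these data known. Alternatives were other pseudocounts, filters, scalings, priors, controls, a replicate block, a covariate for Y-linked transcripts, leaving out each library, and other windows for summits.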

Additional observations from a re-analysis of the deposited data

How the results depend on the processing

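The 24 h call for Usp2 over ZT3 was lost, giving 0 of 6 called, with no filter, under median-of-ratios or quantile scaling, with only the compared libraries, with the Y-linked covariate, with a constant prior, and against ZT9, ZT15 or the mean of the controls; without 1 library the count was 0 to 1, where 0.0733% to 1.57% of all genes were called. The log2 change of Usp2 was still 1.90 with no filter, with only the compared libraries and with a constant prior, and 1.80 with the covariate, with limma's adjusted p between 0.0514 and 0.145; it was 1.65 and 1.72 under the 2 scalings. At 6 h, 1 of 6 was called against ZT3 in place of ZT9. At ZT9 over ZT3, 0 to 1 of 6 were called without 1 library, beside 0% to 0.287% of all genes. When a mean of 5 FPKM was required, 1 of 6, Nampt, passed for both irradiated times together, where 3.19% of all genes did. The counts differing from Dbp at 24 h over ZT3 were 0 with the Y-linked covariate and 0 with unmoderated variances. Those differing from Per2 at ZT9 over ZT3 were 3 with the covariate and as many as 6 in another setting. Relations past the threshold numbered 4 of 12 after median-of-ratios scaling, 2 of them those of Wee1 and Coq10b with Per2, 0 without the 2 farthest libraries and 0 in 1 gene order. Summits in both Nr1d1 lists within 100 bp were at 3 of 6 genes. The causes were not tested.

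The correlations of same-numbered libraries after removing group means were -0.14 for 6 h and ZT9, 0.06 for 24 h and ZT3, 0.17 for 24 h and 6 h, 0.02 for ZT9 and ZT3, 0.47 for ZT15 and ZT3 and -0.031 for ZT15 and ZT9. The largest was that for ZT15 and ZT3, and the main fit did not pair libraries by number. The crossed block, the unmoderated variances and both irradiated times together were added after the data were seen. With the replicate block, 0 of 6 were called at 24 h over ZT3 (Usp2 adjusted p = 0.0697 in limma) and 0 in the other comparisons of levels, and with the numbers of 6 h and ZT9 crossed, 0 of 6 were called.

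Signs changed only for values that were not called, or with the control. At 6 h, in place of ZT9, Usp2 was at 1.70, 0.21 and 0.52 against ZT3, ZT15 and the mean of the controls, Klf10 at 0.020, 0.36 and 0.10, Wee1 at 1.11 and Coq10b at 0.82 against ZT3 and at 0.27 and 0.091 against the mean, and Por at 0.10 against ZT3. At 24 h, in place of ZT3, Usp2 was at -0.16 against ZT9, Wee1 at -0.28 and -0.16 against ZT9 and ZT15, and Por and Coq10b at -0.094 and -0.51 against ZT9, -0.35 and -0.36 against ZT15 and -0.13 and -0.071 against the mean. Por at 24 h was at -0.21 and -0.16 under median-of-ratios and quantile scaling and at -0.073 with the Y-linked covariate, which gave it -0.14 at ZT9 over ZT3 and 0.10 at 6 h over ZT9. Coq10b, both irradiated times together, was at -0.16 and -0.14 under the 2 scalings. Pearson's r with Per2 was -0.17 for Usp2 and -0.23 for Nampt without the 2 farthest libraries and 0.48 for Klf10 in 1 gene order, where Por with Dbp had 0.13.

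Without 1 library in turn, the ranges that crossed 0 were -0.24 to 0.46 (Klf10) and -0.10 to 0.39 (Por) at ZT9 over ZT3, -0.73 to 0.038 (Klf10) at ZT15 over ZT3, -0.44 to 0.26 (Klf10) and -0.41 to 0.32 (Por) at 6 h over ZT9, -0.016 to 0.12 (Por) at 24 h over ZT3, -0.20 to 0.59 (Usp2), -0.32 to 0.19 (Wee1), -0.41 to 0.31 (Por) and -0.34 to 0.012 (Coq10b) at 24 h over 6 h, and -0.29 to 0.073 (Por) and -0.089 to 0.11 (Coq10b) for both irradiated times. The unknown depth and 2 libraries per group limit what could be detected.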
